A study of Homo sapiens with 2 samples.

Results

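The narrowest MYC binding sites of the list form a class of their own size: 1583 of the 17321 peaks on chromosomes 1 to 22 (9.14%, Wilson 95% interval 8.72 to 9.58) had exactly the smallest width that occurs, and every other peak was 143 bp or wider. These peaks were chosen by their width, a measured value that the peak caller sets from the same ChIP and input reads as the fold, the p-value and the summit. All of those values are therefore given as a description, with no test. The series holds 1 MYC ChIP-seq library with 1 input, both from TET21, a human neuroblastoma cell line of the SH-EP family. Both libraries came from cells made to express wild-type MYC and kept in 1 µg/mL doxycycline for 7 days, then fixed in 1% formaldehyde for 10 min. TET21 is known as a line whose MYCN transgene is switched off by doxycycline. The ChIP used 2 µg of a rabbit polyclonal antibody made by the submitters, and the labels do not say whether it tells the introduced MYC from the cell's own. With 1 library of each kind there is no replicate, and the intervals below cover counting error within this list only. They treat peaks as independent.

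MYC is a transcription factor of the basic helix-loop-helix leucine zipper class that pairs with MAX and binds the E-box, a short palindromic DNA motif. It is known for occupying the promoters of a large share of active genes when its level is high, and for growth control in neuroblastoma, where MYCN is the usual family member. In ChIP-seq, fragments that cross-link to the factor pile up over a bound site. MACS2, the peak caller named in the submitters' processing notes, by default keeps only enriched stretches at least as long as its estimate of the fragment length. Under that default a peak of the smallest width is a stretch that just met the limit, and whether the default was used is not given in the sources used here. Sites are named here by GRCh37 position. They were not assigned to genes, start sites or motifs, because no GRCh37 sequence or annotation was used here.

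The smallest width was far more common than any neighbouring width. The next 18 widths, 143 to 160 bp, held between 83 and 117 peaks each, with a median of 95, so the smallest width was 16.7 times as frequent as a typical width just above it. Together those 18 widths held 1737 peaks, close to the 1583 at the single smallest width. The members covered 224.8 kb, which was 4.85% of all bases under peaks on these chromosomes. Wider peaks had a median width of 238 bp, and the widest reached 1548 bp.

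**Figure D1:**
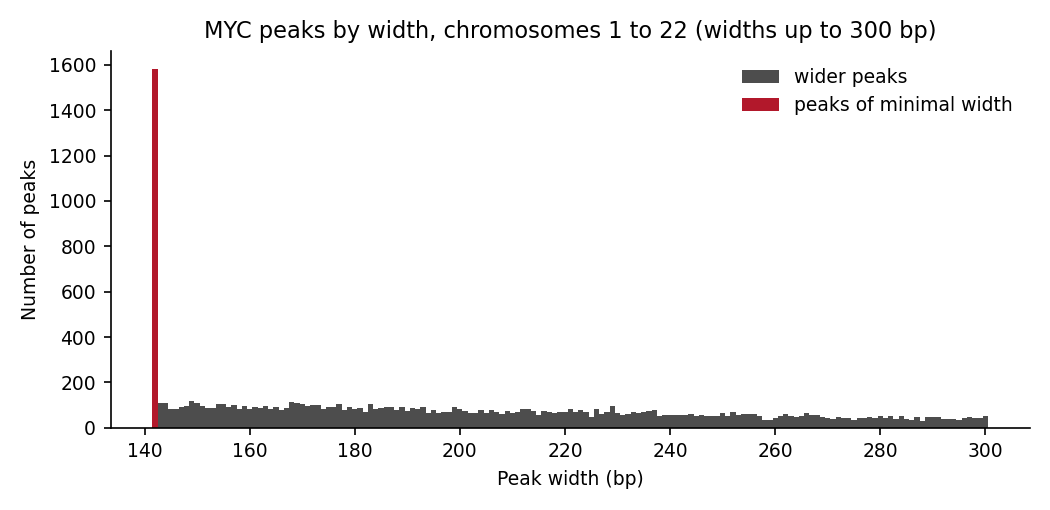
Number of MYC peaks (y axis) at each width in bp (x axis, up to 300 bp) on chromosomes 1 to 22, with the smallest width in red. The red bar holds 1583 peaks, whereas each of the next 18 widths holds 83 to 117.

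Minimal-width sites were weak sites. Their fold over the local background ran from 3.02 to 7.96, with a median of 4.92 (quartiles 4.36 and 5.42), while the 15738 wider peaks had a median of 6.59 (quartiles 5.37 and 8.73) and reached 59.9. No member had a fold of 10 or more, a level that 15.4% of all peaks on these chromosomes reached, 2675 peaks that were all wider. Of the wider peaks, 5042 (32.0%) lay above the strongest member. The 2 classes overlapped at the low end, since 2469 wider peaks (15.7%) had a fold below the members' median. The caller's −log10 p had a median of 6.93 in members and 10.9 in wider peaks, and the −log10 q medians were 3.80 and 7.39.

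Members rested on few ChIP fragments. The pileup, meaning how many ChIP fragments cover the summit, had a median of 9 in members (quartiles 8 and 10, range 5 to 20) and of 13 in wider peaks (quartiles 11 and 18, up to 115). A pileup of 8, 9 or 10 was found at 948 members (59.9%) but at 21.3% of wider peaks. Only 54 members had more than 13 fragments, against 7818 wider peaks (49.7%). Counts this low carry wide error: 9 fragments have an exact Poisson 95% interval of 4.12 to 17.1. The order of single members by strength is therefore not resolved.

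**Figure D2:**
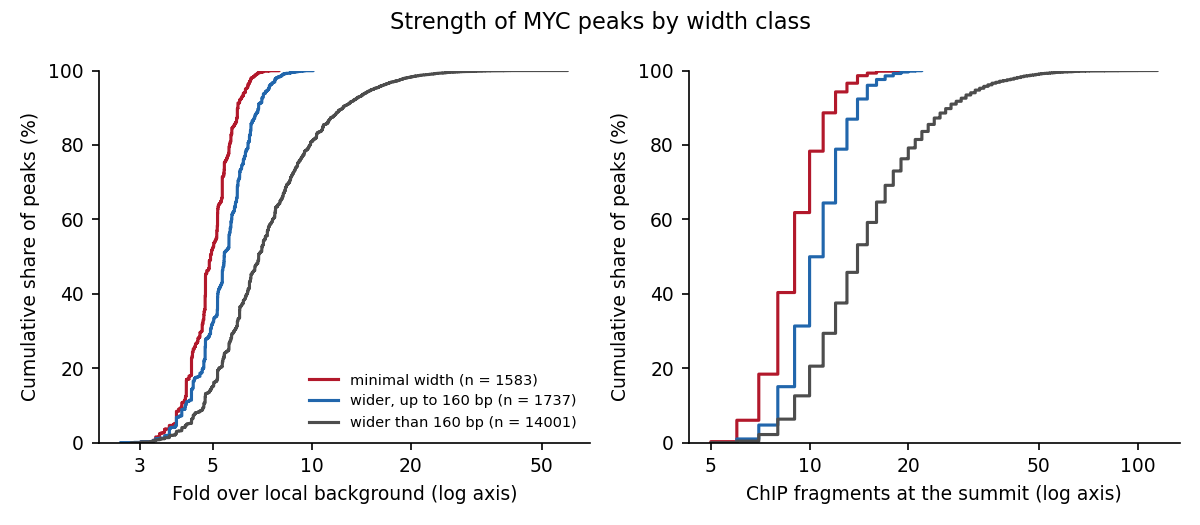
Cumulative share of peaks (y axis, percent) by fold over the local background (left, log axis) and by ChIP fragments at the summit (right, log axis) for the 1583 members, the 1737 wider peaks up to 160 bp and all peaks wider than 160 bp. The members lie to the left in both panels, with medians of 4.92 in fold and 9 in fragments, and the peaks up to 160 bp follow at 5.42 and 11.

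Members were also weaker than the peaks just outside the limit. The 306 peaks that were 1 to 3 bp wider had a median fold of 5.35 (quartiles 4.74 and 5.91), a median pileup of 10 and a median −log10 p of 7.76, all above the members' medians, although the ranges overlap. Peaks up to 160 bp had a median fold of 5.42, the 3514 peaks above that and up to 200 bp one of 5.93, and the 10487 peaks over 200 bp one of 7.53. The median fold thus differed more between the members and the peaks 1 to 3 bp wider than between those and all peaks up to 160 bp.

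The share of peaks with minimal width fell with the number of fragments. Among the 169 peaks with a pileup of 6, 91 were minimal (53.8%, interval 46.3 to 61.2). The share was 31.4% at a pileup of 8, 15.4% at 10 and 6.01% at 12. Above 16 fragments only 3 members occurred, with pileups of 18, 19 and 20.

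How many fragments a peak needs depends on its background. From the weakest −log10 p in the list, 4.005, the fewest fragments that could be listed ranged from 5 at the lowest background to 16 among members and 18 among wider peaks. Members sat close to this limit. Their pileup exceeded it by a median of 3 fragments, and 1149 members (72.6%) were at most 3 above it, against 25.3% of all peaks and 20.6% of the wider ones. The share was 48.7% (interval 43.1 to 54.3) in the peaks 1 to 3 bp wider and 43.1% in all peaks up to 160 bp. No member was more than 9 above, whereas 4870 wider peaks (30.9%) were. Near the limit the minimal share was level, at 33.0%, 31.1% and 30.1% for 0, 1 and 2 fragments above it. It then dropped to 20.4% at 3, 7.09% at 5 and 0.10% at 8. Even at the limit itself, 122 of 182 peaks were wider, so a site with the fewest possible fragments was not bound to be narrow.

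**Figure D3:**
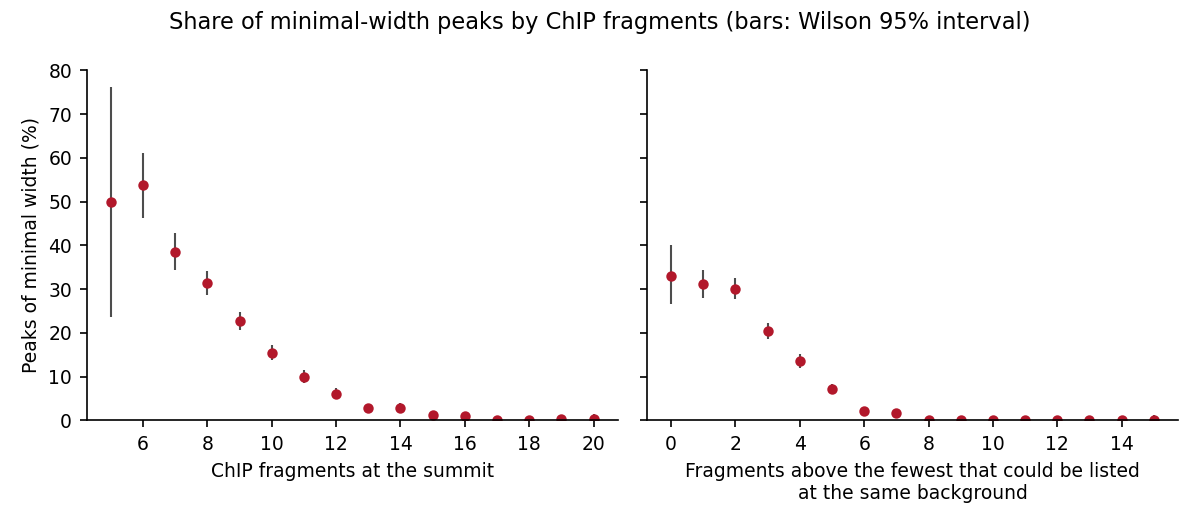
Share of peaks that had minimal width (y axis, percent, bars are Wilson 95% intervals) by the ChIP fragments at the summit (left) and by fragments above the fewest that could be listed at the same background (right). The share falls from 53.8% at 6 fragments to 6.01% at 12, and is level near 30% to 33% up to 2 fragments above the limit.

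Members lay over different kinds of background. The background, in expected fragments, is taken to be the largest of 4 values: a genome-wide floor and the scaled input counted over 1 fragment length, 1 kb and 10 kb. The floor of 0.683 expected fragments applied to 272 members (17.2%, interval 15.4 to 19.1), against 9.76% of all peaks, 9.01% of wider ones and 9.80% of the peaks 1 to 3 bp wider. These members had the fewest fragments, with a median pileup of 7 (range 5 to 11) and a median fold of 4.75. The background of 363 members (22.9%, against 19.3% of wider peaks) fitted whole input counts over 10 kb but not over 1 kb. That of 546 (34.5%, against 35.9%) was assigned to input over 1 kb, although a whole count over 1 kb fits one over 10 kb as well. Both sets had a median pileup of 9, with median folds of 5.23 and 5.14. The remaining 402 (25.4%, against 35.8% of wider peaks) had a background set by input fragments at the site itself, and these had the most ChIP fragments, a median of 10, but the lowest median fold, 4.31.

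The members over local input show how the caller's scale works at weak sites. For 282 members the background equalled 2 scaled input fragments, with a median pileup of 10 and a median fold of 4.74. With 3 input fragments there were 79 members, with a pileup of 11 and a fold of 4.03, and with 4 there were 34, with a pileup of 12 and a fold of 3.57. Fragments thus rose while the fold fell, and the members with the highest pileups were not those with the highest folds. The member with the most fragments, 20, lay over 8 scaled input fragments and had a fold of 3.34.

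Within a narrow band of pileup, members no longer lay at the floor more often than wider peaks. Among peaks with 8 to 10 fragments, 125 of 948 members lay at the floor (13.2%, interval 11.2 to 15.5) and 556 of 3356 wider peaks did (16.6%, interval 15.3 to 17.9). Their median backgrounds were 0.928 and 0.853 expected fragments, and their median folds 5.14 and 5.35. The higher share of floor sites among all members was thus not seen in this band. Pileups were not equal within it: 347 members had 8 fragments and 261 had 10, but 4.82% and 9.14% of all wider peaks did. At a given pileup a floor background also leaves more fragments above the fewest that could be listed, so the floor share and that limit are tied.

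The summit, the position with the most fragments, could lie close to either edge of a member but lay more often towards its centre. Its offset from the left edge ranged from 2 to 140 bp, with a median of 68 and quartiles of 45 and 90. It was a median of 23 bp from the centre of the peak, and within 36 bp of it in 1185 members (74.9%). The left side of the centre held 826 summits (52.2%, interval 49.7 to 54.6), and the interval includes an even split. The left share was 55.6% (53.2 to 57.9) in the wider peaks up to 160 bp and 53.7% (52.9 to 54.4) in all wider peaks, and neither interval includes an even split. In distance from the centre, the wider peaks up to 160 bp were close to the members, with a median of 22 bp and 75.1% within 36 bp.

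The strongest members were scattered over the genome. By −log10 p the first was on chromosome 12 at 110561840 to 110561981, with a −log10 p of 13.1 and a fold of 7.35, from 16 fragments (exact Poisson 95% interval 9.15 to 26.0) where 1.31 were expected. The second, on chromosome 2 at 43653735 to 43653876, had 13 fragments (6.92 to 22.2) over 0.759 and the highest fold of all members, 7.96. The third, on chromosome 4 at 77906180 to 77906321, had 16 fragments over 1.499 and a fold of 6.80. Intervals of these 3 pileups overlap widely.

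The next 7 by −log10 p had pileups of 11 to 15 and folds of 6.40 to 7.43. They lay on chromosome 10 at 116173260 to 116173401 (fold 7.43), chromosome 17 at 48501245 to 48501386 (6.65), chromosome 6 at 143168153 to 143168294 (6.40), chromosome 16 at 12010021 to 12010162 (6.40), chromosome 1 at 31779198 to 31779339 (7.05) and at 21588421 to 21588562 (7.13), and chromosome 15 at 85455713 to 85455854 (7.05). Only the sites on chromosomes 6 and 16 had another peak within 1 kb. A site on chromosome 5 at 159602811 to 159602952 shared the fourth highest fold, 7.13, with 11 fragments at the floor. Its neighbour 188 bp away, at 159602481 to 159602622, was also of minimal width and had a fold of 5.16.

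At the weak end, 3 members stood exactly at the lowest −log10 p of the list, 4.005. They were on chromosome 2 at 38604504 to 38604645 and at 178483700 to 178483841, and on chromosome 15 at 51413491 to 51413632. Each had 10 fragments (4.80 to 18.4) over a background of 4 scaled input fragments and a fold of 3.02. Their summits lay 15, 125 and 2 bp from the left edge, so all 3 had their maximum nearer to an end than to the centre. The next weakest were on chromosome 7 at 149194226 to 149194367, with 6 fragments and a fold of 3.46, and on chromosome 18 at 8615487 to 8615628, with 5 fragments and a fold of 3.56.

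Most minimal-width sites stood alone. With peaks no more than 1 kb apart joined, 1100 members (69.5%) were the only peak of their region, as were 67.0% of wider peaks. Another peak lay within 1 kb, edge to edge, of 483 members (30.5%, interval 28.3 to 32.8), against 32.8% of all peaks and 33.0% of the wider ones (interval 32.3 to 33.8). The 2 intervals overlap at 1 kb. They do not overlap within 500 bp (20.8 to 24.9 in members, 25.4 to 26.8 in wider peaks) or 5 kb (37.5 to 42.3 and 42.5 to 44.0). Within 1 kb and with 8 to 10 fragments, the shares were 31.2% (28.4 to 34.2) in members and 34.3% (32.7 to 35.9) in wider peaks. That is a similar difference to the one at 1 kb over all pileups, and these intervals overlap. Members with and without such a neighbour were alike in strength, with median folds of 4.88 and 4.96 and a median of 9 fragments each.

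Where a member had a neighbour, the neighbour was usually the stronger site, as it was for wider peaks with 8 to 10 fragments. It had the higher fold in 374 of 483 cases (77.4%, interval 73.5 to 80.9), against 49.3% over all peaks with a neighbour and 46.7% over the wider ones, with a median fold of 6.47, a median pileup of 13 and a median width of 229 bp. The members' own low folds favour such a count. With 8 to 10 fragments the share was 77.0% (71.9 to 81.5) in members and 71.8% (69.2 to 74.3) in wider peaks, with overlapping intervals. Over all 483 members with a neighbour, the neighbour had a fold of 10 or more in 75 cases (15.5%). That is near the 14.7% among the neighbours of wider peaks with 8 to 10 fragments. In 9 cases it exceeded 20, and the highest was 31.4. The nearest peak was itself of minimal width for 25 members (5.18%). Among all peaks with another within 1 kb, 483 of 5680 were minimal (8.50%).

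Over all members the median gap to the nearest other peak was 12.6 kb, against 9.71 kb for wider peaks. Among peaks with another within 1 kb, a choice that keeps gaps short, the median was 260 bp for members and 233 bp for wider peaks. The smallest gap was 52 bp in both classes. The closest cases were on chromosome 17 at 71289883 to 71290024, 52 bp from a peak with a fold of 6.11, and on chromosome 5 at 179334964 to 179335105, 53 bp from one with 6.12. On chromosome 17 at 40118828 to 40118969 the gap was 53 bp and the neighbour's fold 5.68. On chromosome 6 at 97345290 to 97345431 it was 54 bp, beside a peak 463 bp wide with 25 fragments. These members had folds of 3.69, 3.88, 5.16 and 4.31. Whether peaks this close mark distinct bound positions was not tested.

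Joined regions seldom held more than 1 member, and members were few among their peaks. Of 2112 regions of 2 peaks, with 361 members among 4224 peaks, 347 held 1 member and 7 held 2. Whether that is fewer than the low share of members alone would give was not tested. A member had the lowest fold of its region in 288 of 361 cases with 2 peaks (79.8%), against 50.4% over all peaks in such regions. With 8 to 10 fragments the share was 80.3% (74.6 to 84.9) in members and 73.7% (70.6 to 76.6) in wider peaks, with overlapping intervals. A member had the highest fold in 87 of 483 cases (interval 14.8% to 21.7%) over all regions with more than 1 peak. The share was 45.6% over all peaks in such regions and 48.2% over the wider ones. At 8 to 10 fragments it was 18.6% (14.6 to 23.4) in members and 22.2% (19.9 to 24.7) in wider peaks, with overlapping intervals. Regions of 3 or more peaks contained 122 members (7.71%, against 8.48% of wider peaks), and 76 of them (62.3%) lay at an end of the region, as did 62.2% of the wider peaks there. No region held 3 members. There were 17 regions with 2, and the fullest, with 5 peaks over 2694 bp and a best fold of 10.9, spanned 118306113 to 118308806 on chromosome 11. On chromosome 16 at 56641316 to 56642642, 2 of 3 peaks were members, 1 of them at 56642120 to 56642261 and 54 bp from the strongest peak, which had a fold of 11.2.

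At the other extreme, 253 members (16.0%, interval 14.3 to 17.9) had no other peak within 100 kb, compared with 12.6% of all peaks and 12.2% of the wider ones (11.7 to 12.7). These 2 intervals do not overlap. Among peaks with 8 to 10 fragments the shares were 15.1% (12.9 to 17.5) and 14.3% (13.1 to 15.5), whose intervals do overlap. Isolated members were no weaker than the rest, with a median fold of 4.88 and 9 fragments, whereas isolated wider peaks had a median fold of 6.54.

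The most isolated member lay on chromosome 1 at 72749223 to 72749364, 1914 kb from the nearest peak, with 9 fragments over 3 scaled input fragments and a fold of 3.36. The next, on chromosome 18 at 39772873 to 39773014, was 1887 kb away, with 9 fragments at the floor and a fold of 5.94. The others of the 5 farthest were on chromosome 4 at 35022952 to 35023093 (fold 5.60), chromosome 2 at 141102565 to 141102706 (4.65) and chromosome 13 at 65297994 to 65298135 (4.16), all at least 1206 kb from any other peak. Pileups of the 5 ranged from 6 to 12.

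The minimal share was higher where peaks were sparse. In 1-Mb windows with a single peak, 43 of 279 peaks were minimal (15.4%, interval 11.6 to 20.1). The share was 10.4% in windows of 2 to 4 peaks, 9.84% at 5 to 9, 8.68% at 10 to 19 and 8.20% (7.46 to 9.01) at 20 or more. Peaks in sparse windows also had fewer fragments, with a median pileup of 12 in windows of up to 4 peaks and 14 in windows of 20 or more. Among peaks with 8 to 10 fragments the shares were 23.8% (20.6 to 27.4) and 22.5% (20.1 to 25.1), and their intervals overlap.

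**Figure D4:**
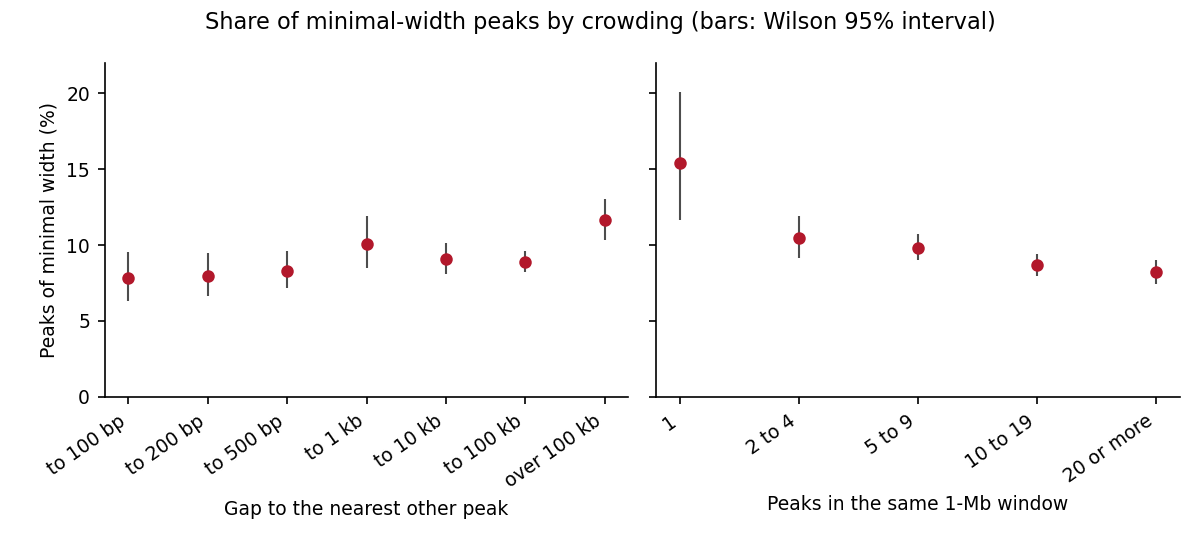
Share of peaks that had minimal width (y axis, percent, bars are Wilson 95% intervals) by the gap to the nearest other peak (left) and by the number of peaks in the same 1-Mb window (right). It reaches 11.6% at gaps above 100 kb and 15.4% for peaks alone in their window, against 8.20% in windows of 20 or more.

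Members were found in 1017 of the 2186 1-Mb windows with a peak, and 658 of these held 1. The window with the most was 30 to 31 Mb on chromosome 16, with 8 members among 46 peaks. Windows at 2 to 3 Mb on chromosome 19 and 40 to 41 Mb on chromosome 17 held 7 each, of 48 and 40 peaks. Windows with 6 members were at 48 to 49 Mb on chromosome 3, 74 to 75 Mb on chromosome 15 and 34 to 35 Mb on chromosome 6, the last with only 19 peaks in all. These windows were picked for their number of members.

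Chromosomes differed in the share of minimal peaks, and chromosome 7 was lowest. There 67 of 1050 peaks were minimal (6.38%, interval 5.06 to 8.02), against 15 of 200 on chromosome 21, 7.89% on chromosome 1 and 10.7% on chromosomes 5, 15 and 18. Chromosome 7 also had the highest background, a geometric mean of 1.502 expected fragments, and the highest median pileup, 15, shared with chromosome 17. Chromosomes 1 and 17 had backgrounds of 1.32 and 1.34, and all others were between 1.04 and 1.10. Together chromosomes 1, 7 and 17 had 317 members among 4112 peaks (7.71%, interval 6.93 to 8.56), and the other chromosomes 1266 among 13209 (9.58%, interval 9.09 to 10.1).

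The order was different within a narrow band of pileup. At a given pileup a higher background leaves fewer fragments above the fewest that could be listed, so this order and the background are tied. With 8 to 10 fragments, chromosome 7 had the highest minimal share, 34 of 128 peaks (26.6%, interval 19.7 to 34.8). Chromosomes 17 and 1 came next, at 26.3% and 25.8%. Pooled, these 3 had 26.1% (22.96 to 29.46), and the other chromosomes 21.2% (19.9 to 22.6). Few of their peaks had so low a pileup: 12.2% on chromosome 7, against 22.5% to 29.3% on chromosomes other than 1, 7 and 17. Across the 22 chromosomes the share of minimal peaks and the background had a Pearson r of −0.63 and a Spearman rho of −0.30, as a description of points that share 1 library. Without chromosomes 1, 7 and 17 the values were 0.02 and 0.02, so the relation rests on those 3. Among peaks with 8 to 10 fragments the sign was the opposite, with an r of 0.55 and a rho of 0.20 over the 22 chromosomes and of −0.27 and −0.25 without those 3. Chromosome 13, with an ordinary background of 1.04, had the lowest share at 8 to 10 fragments, 15 of 105 peaks (14.3%, interval 8.85 to 22.2).

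**Figure D5:**
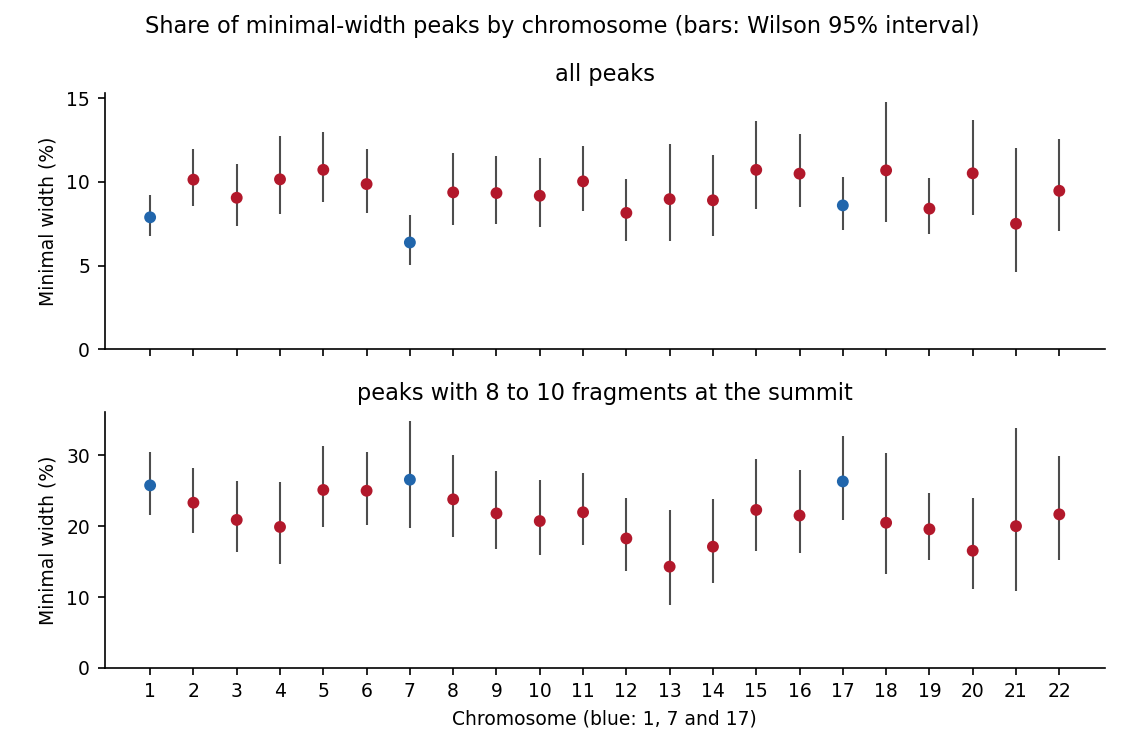
Share of peaks that had minimal width (y axis, percent, bars are Wilson 95% intervals) on each of chromosomes 1 to 22, for all peaks (top) and for peaks with 8 to 10 ChIP fragments at the summit (bottom), with chromosomes 1, 7 and 17 in blue. Chromosome 7 is lowest in the top panel at 6.38% and highest in the bottom panel at 26.6%.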

How the data were processed

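The authors deposited 1 peak list for the ChIP library in narrowPeak layout, on GRCh37 per the submitters' processing notes, which also name STAR 2.5.2a, SAMtools 1.3, Picard 2.7.1, MACS2 2.1.0 and bedtools with no role or order. The deposited fold is a ratio over the caller's local background, and the deposited −log10 p and −log10 q values come from the caller. The deposited score equalled 10 times the −log10 q, cut to a whole number, for 100.0% of the list. How the list was filtered is not stated in the labels.

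Members were the peaks on chromosomes 1 to 22 of exactly 142 bp, the smallest width. They and all measures were chosen with earlier results of these data known. Positions are 1-based. Pileup and background were recovered by trying every whole pileup from 3 to 700 in fold = (pileup + 1)/(background + 1) and the Poisson tail. The largest miss was 0.000221 in −log10 p, and 100.0% of 2807 simulated peaks were recovered when tested on simulated data. Those peaks were made with the same formula. Their backgrounds reached neither down to the floor nor up to that of the contig peak described at the end. Backgrounds were assigned to the floor (0.6832) or to steps of 0.6599 (1 input fragment), 0.09371 (1 kb) and 0.009371 (10 kb) within 0.0003. The 1 kb and 10 kb steps were set by taking the fragment length to be the smallest width. Every 1 kb step is also a 10 kb step, and a background fitting both was assigned to 1 kb. These steps took in 100.0% of members, although the last takes in 6.4% of any values. Sequencing depth is not given in the sources used here.

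Shares have Wilson 95% intervals and single pileups exact Poisson ones, which cover counting error only, since reads lacking molecular identifiers may copy the same molecule. No test was made: there is 1 library per group, and the width shares its source with the other values. Regions named by position are the 10 members with the highest and the 5 with the lowest −log10 p, and the 5 highest in fold, farthest from and closest to another peak. Windows and joined regions with the most members, and the member with the most fragments, were named after their values were seen. The rule's gene names, the start-site shares, motif shares and gene lists planned for this work were not computed, because the gene and promoter tables at hand are on GRCh38.p14. Python 3.11.15, pandas 2.3.3, scipy 1.17.1 and matplotlib 3.10.9 were used.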

Additional observations from a re-analysis of the deposited data

How the results depend on the processing

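Among 18 alternative values, 9 stayed inside the interval of the reported value (for the count, within 1.5 times of it) and 9 did not. Counting widths up to 150 bp as minimal gave 2385 peaks with a median fold of 5.16, by construction a larger and less narrow set. Keeping peaks at or above the list's median −log10 p of 10.3 left 42 members, with a median fold of 6.68, and 7.14% of them had another retained peak within 1 kb, against 17.9% of wider ones. The neighbour share was 22.8% (20.8 to 24.9) within 500 bp, 39.9% (37.5 to 42.3) within 5 kb and 28.2% (26.1 to 30.5) from summit to summit. The wider peaks had 26.1% (25.4 to 26.8), 43.2% (42.5 to 44.0) and 30.0% (29.3 to 30.7). Members were thus below wider peaks at every distance tried. The intervals are apart within 500 bp and 5 kb but overlap from summit to summit. Among members with 8 to 10 fragments, a setting chosen after seeing the data, 13.2% (11.2 to 15.5) lay at the floor. The share of wider peaks was 16.6% (15.3 to 17.9), and these 2 ranges overlap. Leaving out chromosomes 1, 7 and 17 moved none of the 3 values it was run on. Alternatives for start sites and E-boxes were not run, since they need GRCh37 annotation or sequence. With 1 library no replicate could be left out. No member had fewer than 5 fragments, and sites narrower than the smallest width are not in the list, which limits what it shows of weak binding.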

Other observations

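Outside chromosomes 1 to 22 the list held 44 more peaks of the smallest width. Of these, 43 were on chromosome X, among its 311 peaks (13.8%, Wilson 95% interval 10.4 to 18.1), a share above that of any of chromosomes 1 to 22. Their folds ran from 3.57 to 7.13 with a median of 4.75, and their pileups from 5 to 13 with a median of 8. The wider peaks of X had a median pileup of 12 and a median fold of 6.39. Among the peaks of X with 8 to 10 fragments, 20 of 95 were minimal (21.1%, interval 14.1 to 30.3), inside the range of the other chromosomes at that pileup.

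The remaining one lay on the unplaced contig GL000220.1, known for ribosomal RNA gene sequence, at 134250 to 134391. It had 134 fragments where 83.8 were expected, which is a fold of 1.59, with a −log10 p of 6.77. Its pileup was far above the 20 fragments of the highest member on chromosomes 1 to 22, and its fold was below their lowest, 3.02.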
